A study of Homo sapiens with 9 samples.

Results

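The 3 Control libraries of CAL27 cells were examined here across all genes, as a description of which genes these cells express and how strongly. They are 3 of the 9 samples in the series and were chosen by their label alone, so that no measured value decided which libraries were included. CAL27 is an established human line from a carcinoma of the tongue, a tumour of the stratified squamous lining of the mouth. An enhancer active in head and neck tumours is the subject of the study, and its remaining 6 samples (A2ko, A8ko and C9ko) are CRISPR knockouts that were not used here. Per the labels, the Control cells were grown at 37 °C in DMEM with 10% FBS and received no treatment. Whether they had been exposed to a guide or to Cas9 is not said, nor is it said whether the 3 libraries came from separate cultures. The SDs below therefore measure the spread between these libraries, which may be technical.

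Stratified squamous epithelium renews itself from a basal layer anchored to the basement membrane, and its cells switch keratins as they move outwards and flatten. Basal cells pair the keratins KRT5 and KRT14 under the transcription factor p63, whereas outer layers use other keratin pairs and build a crosslinked cornified envelope. Squamous carcinomas keep parts of this programme and often depend on growth factor receptors such as EGFR. Levels are given as TPM, a unit of transcript abundance scaled by transcript length and by library, so that values may be compared between genes. In these bulk libraries, fewer cells expressing a gene and less of its RNA per cell cannot be told apart.

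A gene was counted as detected at 1 TPM or more in every library and as silent below 0.1 TPM in every library. Of 78894 Ensembl identifiers, 14797 (18.8%) were detected and 41490 (52.6%) were listed at 0 in all 3 libraries. Of 19771 protein-coding genes on chromosomes 1 to 22 and X, 11711 (59.2%) were detected, 5122 (25.9%) were silent and 2938 lay between. Listed at 0 in every library were 3512 protein-coding genes (17.8%). The median was 4.49 TPM over all protein-coding genes and 18.6 TPM over the detected ones, 1218 reached 100 TPM in every library and 91 reached 1000 TPM. Each library alone had 15658 to 15832 identifiers at 1 TPM or more, and mitochondrially encoded genes took 23.1%, 26.9% and 23.5% of the total in libraries 1, 2 and 3. The sequencing depth is unknown because TPM keeps no record of it, so a value of 0 says only that the gene is listed at 0. Genes named below are the highest members of each list, and members named at other levels were chosen after their values were seen.

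**Figure D1:**
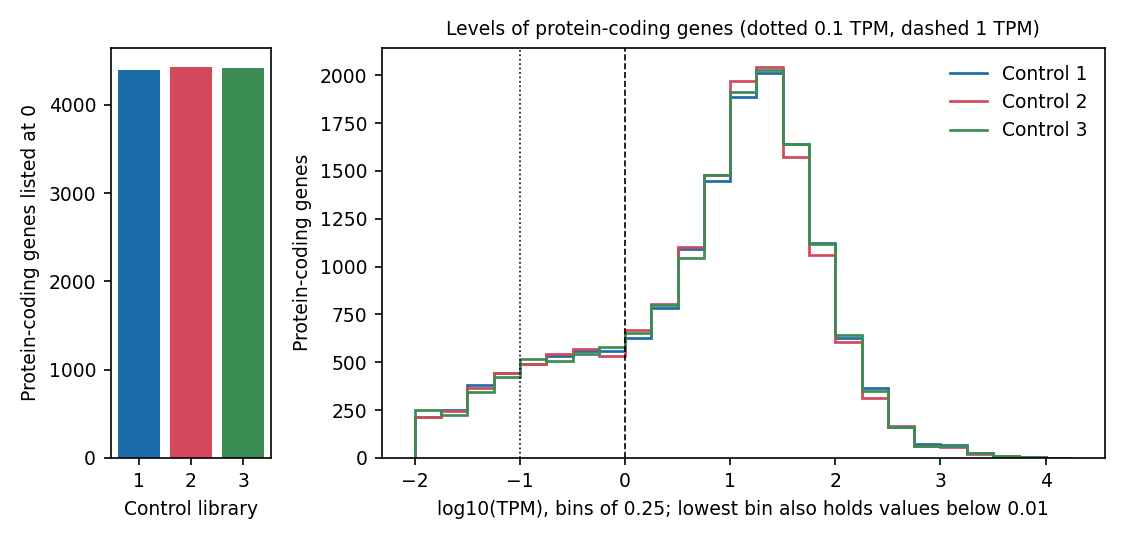
Protein-coding genes listed at 0 (left, number per Control library) and the distribution of log10(TPM) for the others in bins of 0.25 (right, 1 line per library). The lines of the 3 libraries lie close to one another, and between 4400 and 4427 genes were listed at 0 in a library.

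The most abundant nuclear transcript was KRT5, the type II keratin of basal squamous cells (GRCh38, chromosome 12, 52514575 to 52520687, minus strand). It reached 8716, 9147 and 8887 TPM in libraries 1, 2 and 3, a mean of 8917 ± 217 TPM (SD, n = 3, as for every such pair below). KRT14, its type I partner (chromosome 17, 41582279 to 41586921, minus strand), was the 8th most abundant nuclear gene with 3549, 3796 and 4286 TPM. KRT14 was lowest in library 1 and highest in library 3, while KRT5 was highest in library 2. The 6 genes that ranked between them are ones that most growing cells express strongly. GAPDH, a glycolytic enzyme, had 7858, 7309 and 7523 TPM, and EEF1A1, which brings tRNAs to the ribosome, had 7177, 6332 and 6964 TPM. RPS2, a protein of the small ribosomal subunit, averaged 5819 ± 487 TPM. FTH1, the heavy chain of the iron store ferritin, averaged 5488 ± 373 TPM, cytoplasmic actin ACTB 4618 ± 362 TPM and the prolyl isomerase PPIA 4149 ± 305 TPM. Each of these 8 genes was abundant in all 3 libraries, and none fell below 3549 TPM in any library.

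The other 12 of the 20 most abundant nuclear genes averaged at most 3432 TPM. Ribosomal proteins among them included RPLP0, RPL12, RPS18, RPS3, RPL7A, RPL9 and RPS24. The glycolytic enzymes ENO1 and PKM averaged 3358 ± 173 TPM and 3088 ± 119 TPM. The metal-binding protein MT2A had 2656, 2849 and 2961 TPM, and GSTP1, which conjugates glutathione to reactive compounds, had 2403, 2348 and 2496 TPM. RPS24 stood apart in library 3, at 2081 TPM against 2661 and 2644 TPM. In each library, 19 of these 20 genes were among its own 20 highest. Reads of ribosomal protein genes, GAPDH, PPIA and EEF1A1 can be shared with their many processed pseudogenes, so their levels depend on how such reads were assigned.

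Cytosolic ribosomal protein genes were counted by symbol (RPL, RPS or RPLP and a number), which leaves out some, such as RPSA and FAU. All 76 genes so counted exceeded 100 TPM in every library, with a median of 1073 TPM. Together they took 12.5%, 12.8% and 12.9% of the nuclear TPM in libraries 1, 2 and 3. Among the 100 most abundant nuclear genes, 44 were ribosomal protein genes so counted and 5 were keratins. RPSA and FAU were also among the 100, with means of 1319 and 1213 TPM. The 10 most abundant nuclear genes took 7.17% ± 0.0435 (SD, n = 3) of the nuclear TPM, the top 100 took 26.3% ± 0.323 and the top 1000 took 59.5% ± 0.111. These shares varied less between libraries than the mitochondrial share did.

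Keratins are the intermediate filament proteins of epithelia, and each filament pairs a type I with a type II keratin. Of 54 keratin genes, 19 were detected (35.2%, against 59.2% of all protein-coding genes), 15 were silent and 20 lay between. The silent share was 27.8%, near the 25.9% of all protein-coding genes, and 14.8% were listed at 0, against 17.8%. The summed keratin level was 17713, 18275 and 18835 TPM in libraries 1, 2 and 3, which was 2.42% ± 0.105 (SD, n = 3) of the nuclear TPM. Most of this came from 5 genes, KRT5, KRT14, KRT15, KRT6A and KRT17, which held 93.9% ± 0.153 of all keratin TPM. KRT15, a type I keratin of basal cells, had 1886, 1803 and 1925 TPM. KRT6A, a type II keratin of oral epithelium and of wound edges, had 1426, 1360.0 and 1370.0 TPM, and KRT17, a type I keratin induced in wounds and tumours, had 1031, 1079 and 1243 TPM. The order of these 5 genes was the same in all 3 libraries, with no overlap between neighbours.

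A second tier ran from KRT8 to KRT6B, between 42.6 and 251 TPM. The simple-epithelial pair KRT8 and KRT18 averaged 235 ± 16.4 TPM and 229.8 ± 14.1 TPM, and their ranges overlapped, with KRT18 higher in library 1 and KRT8 higher in the other two. Their ratio was 1.03 ± 0.124 (SD, n = 3). KRT4 and KRT13, the pair of the outer layers of oral and oesophageal lining, had 202, 198 and 197 TPM and 94.95, 88.7 and 97.2 TPM. KRT16, often found with KRT6A in activated keratinocytes, had 154, 160.1 and 176 TPM. KRT80 averaged 54.6 ± 2.51 TPM and KRT6B 44.3 ± 1.81 TPM. Both lay below KRT13 in every library.

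The outer epidermal keratins were much lower. KRT10 had 29.4, 28.6 and 27.6 TPM and its partner KRT1 had 16.8, 19.8 and 18.9 TPM, so that KRT1 stood at 0.649 ± 0.0674 (SD, n = 3) of KRT10. KRT6C averaged 18.4 ± 0.921 TPM and overlapped KRT1. KRT7 and KRT19, keratins of simple epithelia, averaged 6.36 ± 0.5802 TPM and 3.495 ± 0.498 TPM. KRT3, a keratin of the cornea, was steady at 1.73, 1.75 and 1.69 TPM, and KRT32, a hair keratin, had 1.12, 1.41 and 1.05 TPM. From KRT32 downwards, the ranges of neighbouring keratins overlapped. KRT24, KRT25, KRT26, KRT27, KRT28 and KRT36 were among 8 keratins listed at 0 in every library, and the other 2 were KRT40 and KRT85. KRT6A, KRT6B and KRT6C have near-identical sequences, so the split between them is uncertain. KRT6A held 0.957 ± 0.00121 of their sum.

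Type II keratins summed to more than type I keratins in every library, by a factor of 1.53, 1.54 and 1.36. KRT5 exceeded KRT14 by a factor of 2.46, 2.41 and 2.07. Library 3 was the lowest in both ratios, and it was also the library with the highest KRT14, KRT17 and KRT16.

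**Figure D2:**
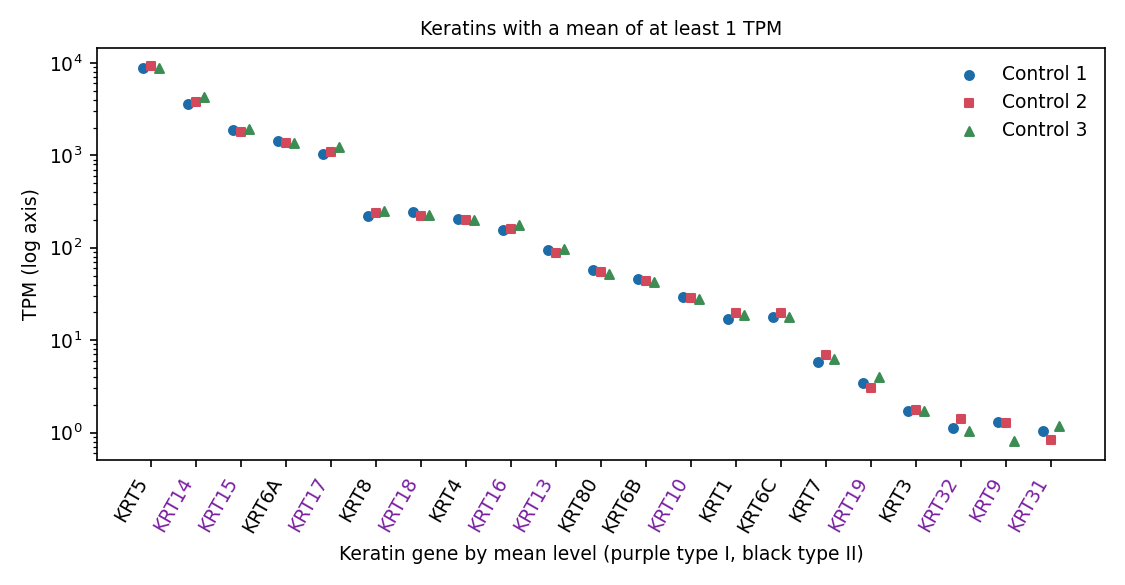
Levels of the 21 keratins with a mean of at least 1 TPM on a log axis, 1 symbol per Control library, with type I names in purple and type II names in black. KRT5 lies highest, the levels step down after the 5th gene, and KRT32, KRT9 and KRT31 lie near 1 TPM.

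Promoter letters are shown for 6 genes of this programme to set the strongest keratin beside keratins of middle level and keratins listed at 0. RefSeq promoter sequences on GRCh38.p14 (250 bases before and 50 after a start of transcription) were found for 15270 of 19764 protein-coding genes with a symbol and for 34 of the 54 keratins. Each line below gives the 100 bases before the start, on the strand of the gene, 5′ to 3′. Capitals mark TATAA or ATAAA, the core letters of a TATA element, where either begins 40 to 20 bases before the start. Both sets of letters overlap in TATAAA, and the opposite strand was not searched.
KRT5, chr12:52520395-52520494, minus strand: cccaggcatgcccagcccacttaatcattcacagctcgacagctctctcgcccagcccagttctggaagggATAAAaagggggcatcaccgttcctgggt
KRT4, chr12:52814117-52814216, minus strand: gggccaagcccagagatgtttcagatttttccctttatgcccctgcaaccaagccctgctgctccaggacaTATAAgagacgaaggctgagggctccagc
KRT10, chr17:40822615-40822714, minus strand: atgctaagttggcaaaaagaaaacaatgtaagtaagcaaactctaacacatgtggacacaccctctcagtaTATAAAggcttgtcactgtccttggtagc
SPRR1B, chr1:153031103-153031202, plus strand: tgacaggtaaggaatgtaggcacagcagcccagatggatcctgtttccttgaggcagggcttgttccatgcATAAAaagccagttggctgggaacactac
KRT24, chr17:40703753-40703852, minus strand: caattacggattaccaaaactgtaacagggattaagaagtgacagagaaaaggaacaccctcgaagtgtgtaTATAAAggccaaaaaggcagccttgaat
KRT85, chr12:52367482-52367581, minus strand: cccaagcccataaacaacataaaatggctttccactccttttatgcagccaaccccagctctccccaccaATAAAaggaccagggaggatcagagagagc

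The letters were present in KRT5, the most abundant nuclear gene, and also in KRT24 and KRT85, which were listed at 0. Of these, KRT24 held the full TATAAA, whereas KRT5 and KRT85 held only ATAAA. KRT14, KRT15, KRT6A and KRT17 had no sequence in this set. Of the 34 keratins with a sequence, 14 were silent and 14 lay between. Of the same 34, 29 held TATAA or ATAAA (85.3%), against 8.15% of all 15270 promoters. With TATAAA alone, the shares were 44.1% of keratins and 3.69% of all promoters. Silent genes held either set of letters in 16.2% of 3668 promoters, genes with a mean of 10 to 100 TPM in 3.09% of 5534, and genes at 1000 TPM or more in 25.6% of 78. The stricter TATAAA gave 7.80%, 1.23% and 7.69% in these classes, so the higher share at 1000 TPM than in silent genes was not found with the stricter letters. Both versions were lowest at 10 to 100 TPM. The search letters were chosen after keratin promoters had been seen. The classes also differ in base composition, with a median GC content of 54.3% in silent genes, 65.7% at 10 to 100 TPM and 62.3% at 1000 TPM or more. In the 34 keratins the median was 45.7%, against 63% of all promoters.

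CpG dinucleotides, which are dense in CpG island promoters and depleted elsewhere, followed another order. The ratio of observed to expected CG over the 300 bases had a median of 0.336 in silent genes, 0.862 at 10 to 100 TPM and 0.890 at 1000 TPM or more. In keratins the median was 0.140, and KRT5 had 0.301, below the median of silent genes. Next are the same 100 bases for CLDN1 and FGFR3, which were strongly expressed, and for VIM, which was near 0, with every CG in capitals.
CLDN1, chr3:190322447-190322546, minus strand: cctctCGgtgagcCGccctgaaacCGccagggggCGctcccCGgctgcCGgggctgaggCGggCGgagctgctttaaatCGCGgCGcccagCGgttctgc
FGFR3, chr4:1793193-1793292, plus strand: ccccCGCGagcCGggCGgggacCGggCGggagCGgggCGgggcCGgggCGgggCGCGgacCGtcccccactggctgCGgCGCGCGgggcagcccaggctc
VIM, chr10:17228141-17228240, plus strand: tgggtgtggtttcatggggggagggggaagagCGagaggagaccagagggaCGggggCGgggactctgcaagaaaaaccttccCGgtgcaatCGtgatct
The printed stretch held 12 CG in CLDN1, 17 in FGFR3 and 5 in VIM, against 3 in KRT5. VIM, at a mean of 0.1299 TPM, thus held fewer CG than CLDN1 and FGFR3 and more than KRT5. The start used by these cells was not measured, and a match of letters describes the sequence only.

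Transcription factors of squamous identity were detected in 30 of 34 cases (88.2%, against 59.2% of protein-coding genes), with a median of 11.6 TPM. TP63, which encodes p63, had 271, 274 and 296 TPM (chromosome 3, 189631416 to 189897279, plus strand). SOX15 had 183, 170.0 and 178 TPM and TRIM29, a p63-linked regulator of squamous cells, had 179.5, 169.7 and 171 TPM. The ETS factors EHF and ELF3, which act in epithelial differentiation, had 192, 175 and 177 TPM and 175, 162 and 182 TPM. KLF5 completed the 6 highest with 113, 113 and 118 TPM. TP63 lay above the 5 others in every library. SOX2, a lineage factor that is often gained with TP63 in squamous tumours, had 10.5, 10.1 and 9.87 TPM, far below TP63. PITX1, a factor of oral ectoderm, averaged 33.8 ± 1.86 TPM, and PAX9, known from oral and pharyngeal lining, 8.31 ± 0.616 TPM. TFAP2B was listed at 0 in every library, whereas its relatives TFAP2A and TFAP2C averaged 58.7 ± 0.487 TPM and 25.96 ± 1.68 TPM. GRHL2, a regulator of epithelial barrier genes, averaged 53.4 ± 1.67 TPM.

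Genes of terminal differentiation were split. Of 47, 23 were detected (48.9%, against 59.2% of protein-coding genes), with a median of 0.760 TPM against 4.49 TPM for all protein-coding genes. Silent members numbered 13 (27.7%, near the 25.9% of all protein-coding genes), and 10 of those were listed at 0 (21.3% of the list, against 17.8%). KLK5, a secreted protease of the outer epidermis, was highest with 417, 384 and 387 TPM. SPRR1B and SPRR1A, precursors of the cornified envelope, had 221, 215 and 228 TPM and 130.4, 124 and 122 TPM. The secreted protein DMKN had 145, 140.2 and 140.2 TPM, the calmodulin-like CALML3 139.7, 130.3 and 143 TPM and the protease inhibitor PI3 92.4, 90.2 and 99.7 TPM. In contrast, involucrin (IVL), the scaffold of the envelope, had 2.08, 2.001 and 1.96 TPM, and filaggrin (FLG) had 0.346, 0.403 and 0.434 TPM. LORICRIN, CDSN, SPRR2F, LCE1A, LCE1B and LCE2A were among the members listed at 0. TGM1, the transglutaminase that crosslinks the envelope, averaged 5.81 ± 0.601 TPM, while TGM3 was listed at 0. SPRR1A and SPRR1B are close relatives, so the split between them is uncertain.

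Many of these genes lie together in the epidermal differentiation complex on chromosome 1 (GRCh38, 151982915 to 153632039). Of its 64 protein-coding genes, 23 were detected (35.9%, against 59.2% of all protein-coding genes) and 28 were silent (43.8%, against 25.9%). The S100 genes, which encode calcium-binding proteins, had the highest values, led by S100A11 with 1239, 1308 and 1341 TPM, S100A6 with 988, 963 and 1024 TPM and S100A10 with 907, 864 and 847 TPM. S100A2, known as a p63 target, had 734, 769 and 819 TPM. S100A9 and S100A8, the subunits of calprotectin, averaged 491 ± 21.7 TPM and 229 ± 23.8 TPM. The 19 late cornified envelope genes in the genome had none detected and 16 silent (84.2%, against 25.9%). Their highest single value was 0.606 TPM, in LCE5A.

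Genes for attachment to the basement membrane were all detected, 13 of 13 (100%, against 59.2% of protein-coding genes). Their median was 54.2 TPM, against 4.49 TPM for all protein-coding genes. The tetraspanin CD151 had 257, 245 and 244 TPM. The integrin pair of the hemidesmosome, ITGA6 and ITGB4, had 184, 167 and 172 TPM and 155, 162 and 166 TPM. COL17A1, a transmembrane collagen of the hemidesmosome, had 113, 120.4 and 122 TPM. The laminin chains LAMA5 and LAMB3 had 173, 191 and 215 TPM and 149.8, 155 and 167 TPM. The laminin chain LAMA3 averaged 17.4 ± 0.634 TPM, below LAMB3 in every library.

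Over all 26 integrins, 12 were detected (46.2%, against 59.2% of protein-coding genes), with a median of 0.773 TPM. After ITGA6 and ITGB4, ITGA3 had 129, 123 and 125 TPM and the common beta chain ITGB1 had 86.9, 82.5 and 86.8 TPM. ITGAE, an alpha chain known from lymphocytes within epithelia, and ITGAV followed at 32.3 ± 1.83 TPM and 31.9 ± 1.11 TPM. The integrins ITGA8 and ITGB3 were listed at 0. Other integrin chains known from leukocytes were lower than ITGAE. ITGA4 averaged 7.43 ± 0.136 TPM, ITGB2 0.963 ± 0.30996 TPM, ITGAM 0.555 ± 0.184 TPM and ITGB7 0.394 ± 0.454 TPM, and ITGAL, ITGAX and ITGAD stayed at or below 0.142 TPM.

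Of 29 junction genes, 23 were detected (79.3%, against 59.2% of protein-coding genes), with a median of 71.5 TPM. CLDN1, a tight junction protein, was highest with 1112, 1079.7 and 1063 TPM. The desmosomal proteins JUP and PERP had 436, 408 and 441 TPM and 419, 371 and 361 TPM. EPCAM, an adhesion protein of epithelia, had 258, 236 and 239 TPM, and CTNND1, which binds cadherins, had 231, 217 and 215 TPM. DSP, the plaque protein that ties desmosomes to keratins, had 182, 167 and 171 TPM. Among the desmosomal cadherins, DSG2, DSG3 and DSC3 were near one another, at 37.7 ± 0.604 TPM, 37.02 ± 2.14 TPM and 39.5 ± 1.05 TPM. The differentiation-linked DSG1 and DSC1 had at most 0.345 and 0.222 TPM. E-cadherin (CDH1) had 105, 100.3 and 106 TPM and P-cadherin (CDH3) 148, 140.2 and 148 TPM, while N-cadherin (CDH2) had 6.21, 5.398 and 6.83 TPM. CDH1 exceeded CDH2 by a factor of 17.01 ± 1.51 (SD, n = 3).

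The epithelial to mesenchymal transition list was uneven. Of 23 genes, 17 were detected (73.9%, against 59.2% of protein-coding genes), with a median of 13.2 TPM. TGFBI, an extracellular adhesion protein, had 346, 338 and 345 TPM, the urokinase gene PLAU 251, 221 and 226 TPM and the matrix protein TNC 94.9, 93.3 and 101 TPM. LAMB3, given above, is also in this list. SNAI2, a repressor of epithelial genes that basal squamous cells also use, had 86.3, 78.4 and 82.8 TPM. Vimentin (VIM), the intermediate filament of mesenchymal cells, had 0.08096, 0.225 and 0.0841 TPM. ZEB1 and ZEB2, repressors of CDH1, had 0.128, 0.0813 and 0.147 TPM and 0.249, 0.1296 and 0.119 TPM. PRRX1 was listed at 0, and SNAI1 was detected at 1.51, 2.10 and 1.11 TPM. Of the 7 transcription factors in the list, 3 were detected (42.9%, against 59.2% of protein-coding genes). SNAI2 was thus high in all 3 libraries while VIM, ZEB1 and ZEB2 stayed at or below 0.249 TPM.

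The labels name the line and call it immortalized. Markers of squamous and other cell types are described next. These lists were chosen with earlier results of these data known, so they describe the cells and do not test their origin. All 10 squamous markers were detected (100%, against 59.2% of protein-coding genes), with a median of 688 TPM and a lowest value of 34.7 TPM, in DSG3. Besides KRT5, KRT14, KRT6A, KRT17 and TP63, SFN, a 14-3-3 protein of keratinocytes, had 1116, 1012 and 1156 TPM. Among 14 markers of simple and glandular epithelium, 4 were detected (28.6%), namely KRT8, KRT18, KRT7 and KRT19. NKX2-1 and KRT20 averaged 0.687 and 0.0675 TPM, and MUC2, MUC5B, MUC5AC and CDX2 had at most 0.0397 TPM. VIL1, TFF3, AQP5 and SFTPC were listed at 0, and the list summed to 467 to 485 TPM, nearly all of it KRT8 and KRT18.

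Markers of other cell types were low as whole lists. In the lists of this paragraph and the next, detected shares ran from 0% (erythroid) to 30% (fibroblast, and neuron and glia). Silent shares ran from 30% (neuron and glia) to 87.5% (hepatocyte). Over all protein-coding genes, 59.2% were detected and 25.9% were silent. In the fibroblast list, 3 of 10 were detected (COL1A1 6.35 ± 0.499 TPM, LUM 2.74 ± 0.234 TPM and COL1A2 1.87 ± 0.116 TPM), PDGFRB and DCN averaged 0.252 and 0.107 TPM, FAP, THY1, PDGFRA and POSTN had at most 0.0614 TPM, and COL3A1 was listed at 0. The list summed to 10.8 to 12.3 TPM. In the endothelial list, 2 of 10 were detected (EGFL7 20.5 ± 0.373 TPM and CDH5 3.696 ± 0.534 TPM), VWF, CLDN5, ESAM, TEK and ROBO4 had at most 0.304 TPM, and PECAM1, KDR and TIE1 were listed at 0. That list summed to 24.2 to 24.9 TPM. In the leukocyte list, 2 of 12 were detected (CD68 29.7 ± 2.23 TPM and CD14 15.7 ± 1.92 TPM), ITGAM, CD3E and NKG7 averaged 0.555, 0.269 and 0.132 TPM, and PTPRC, the pan-leukocyte marker, had at most 0.0232 TPM. CD3D, MS4A1, LYZ, CD2 and TYROBP were listed at 0, and the sum was 43.03 to 51.3 TPM. Some established markers of these cell types, CD14 and CD68 of monocytes and macrophages, CDH5 of endothelium and COL1A1 of fibroblasts, were thus measurable, while others, such as PTPRC, PECAM1 and COL3A1, were at or near 0.

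The melanocyte list had 1 of 7 detected (PMEL 1.48 ± 0.0324 TPM), with MITF at 0.842 TPM, MLANA at 0.321 TPM, TYRP1 and SOX10 below 0.1 TPM in every library and TYR and DCT at 0. It summed to 2.44 to 2.97 TPM. The neuronal and glial list had 3 of 10 (TUBB3 24.5 ± 3.21 TPM, NEFL 4.197 ± 0.648 TPM and MAP2 1.28 ± 0.251 TPM), with SYP, RBFOX3 and SNAP25 at 1.12, 0.2101 and 0.1602 TPM, GFAP and CHGA at 0.136 and 0.0179 TPM and OLIG2 and S100B at 0, a sum of 27.8 to 34.4 TPM. The muscle list had 2 of 9 (TNNT3 4.33 ± 0.292 TPM and ACTA2 1.49 ± 0.05401 TPM), MYH11, ACTA1 and CKM had at most 0.294 TPM, and DES, MYOD1, MYOG and MYH2 were at 0, a sum of 6.08 to 6.496 TPM. Hepatocyte markers had 1 of 8 detected (SERPINA1 2.05 ± 0.502 TPM), with TF at 0.0291 TPM and ALB, APOA1, APOB, TTR, AFP and CYP3A4 at 0, a sum of 1.52 to 2.52 TPM. Germ and pluripotent cell markers had 1 of 9 (POU5F1 2.61 ± 0.635 TPM), with SYCP3 at 0.167 TPM, LIN28A at 0.0192 TPM and NANOG, DPPA4, DAZL, DDX4, TNP1 and PRM1 at 0, a sum of 2.02 to 3.41 TPM. Erythroid markers had none of 8, with HBA1, HBA2 and ALAS2 at 0.339, 0.137 and 0.0926 TPM and HBB, HBG1, HBG2 and GATA1 at 0, a sum of 0.0848 to 1.07 TPM.

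**Figure D3:**
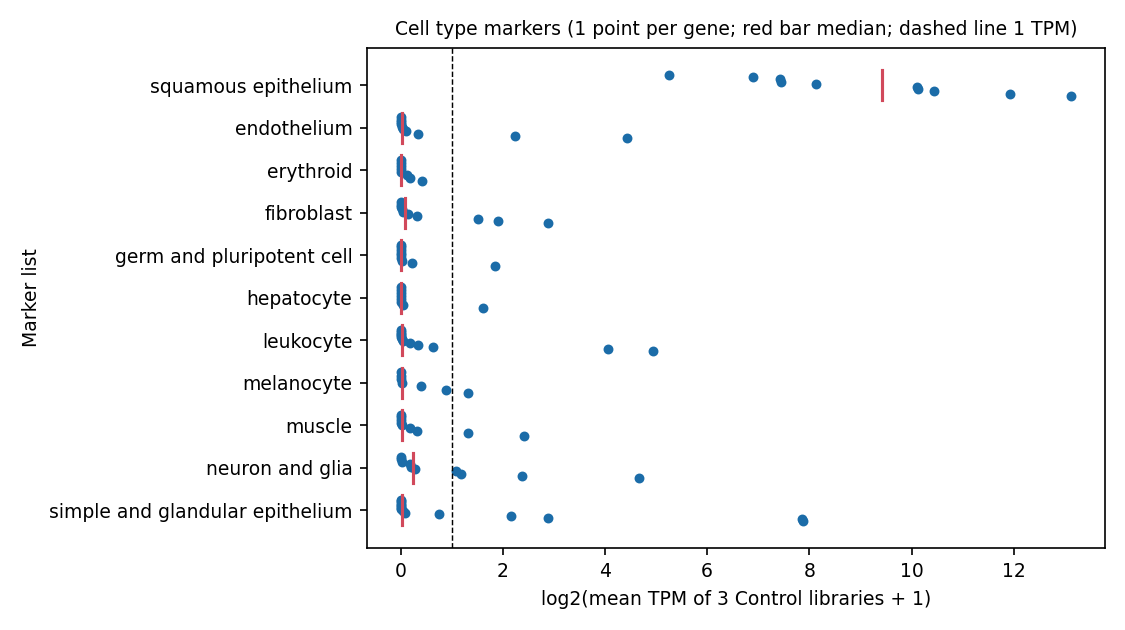
Mean level of each marker gene over the 3 Control libraries, as log2(TPM + 1), by cell type list, with a red bar at the median of the list. Every squamous marker lies right of the dashed line at 1 TPM, and the medians of the other 10 lists lie near 0.

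Receptor tyrosine kinases pass signals from growth factors outside the cell. Of 58, 25 were detected (43.1%, against 59.2% of protein-coding genes), with a median of 0.375 TPM. Silent members numbered 20 (34.5%, against 25.9%), and 7 of those were listed at 0 (12.1% of the list, against 17.8%). A pair stood above the rest. DDR1, a collagen receptor, had 317, 327 and 342 TPM (chromosome 6, 30876421 to 30900156, plus strand), and EGFR, the receptor of the EGF family of ligands, had 265, 285 and 350.0 TPM (chromosome 7, 55019021 to 55211628, plus strand). EGFR was highest in library 3, where it exceeded DDR1, while DDR1 was the higher in libraries 1 and 2. EGFR held 0.253 ± 0.0211 (SD, n = 3) of the summed receptor level. In library 3, the deviation of a gene from its 3-library mean had a median of 0.0309 log2 units among genes in the top 25% of GC content and of -0.0149 in the bottom 25%, relative to all genes of that library. The part of this in the EGFR value was not tested.

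FGFR3, a fibroblast growth factor receptor, came next with 82.4, 80.6 and 89.6 TPM. After it came EPHA2, an ephrin receptor of epithelial cells, at 67.1 ± 2.68 TPM, PTK7, a pseudokinase of planar cell polarity, with 55.6, 57.96 and 62.4 TPM, and RYK, a WNT co-receptor, with 59.2, 54.3 and 61.7 TPM. MET, the receptor of HGF, had 47.1, 46.7 and 49.1 TPM. EPHA2 lay above PTK7, RYK and MET in every library, and the ranges of PTK7 and RYK overlapped.

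Families differed in how many members were present. In the ErbB family, ERBB2 and ERBB3 averaged 31.7 ± 2.82 TPM and 18.2 ± 0.907 TPM, and ERBB4 had at most 0.0153 TPM. EGFR exceeded ERBB2 by a factor of 9.43 ± 0.627. In the FGF receptor family, FGFR2 and FGFR4 averaged 17.3 ± 1.44 TPM and 14.2 ± 0.582 TPM, whereas FGFR1 had 0.0305, 0.0638 and 0.0274 TPM. AXL and TYRO3 averaged 19.8 ± 1.17 TPM and 5.305 ± 0.427 TPM, and MERTK stayed at or below 0.5005 TPM. IGF1R averaged 13.1 ± 0.567 TPM, and the insulin receptor INSR 0.724 ± 0.0493 TPM. None of the 5 PDGF and CSF receptors and none of the 5 VEGF and TIE receptors was detected. FLT3, KDR, FLT4, TIE1, EPHA5 and EPHA7 were among the receptors listed at 0, and the other was NTRK3.

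**Figure D4:**
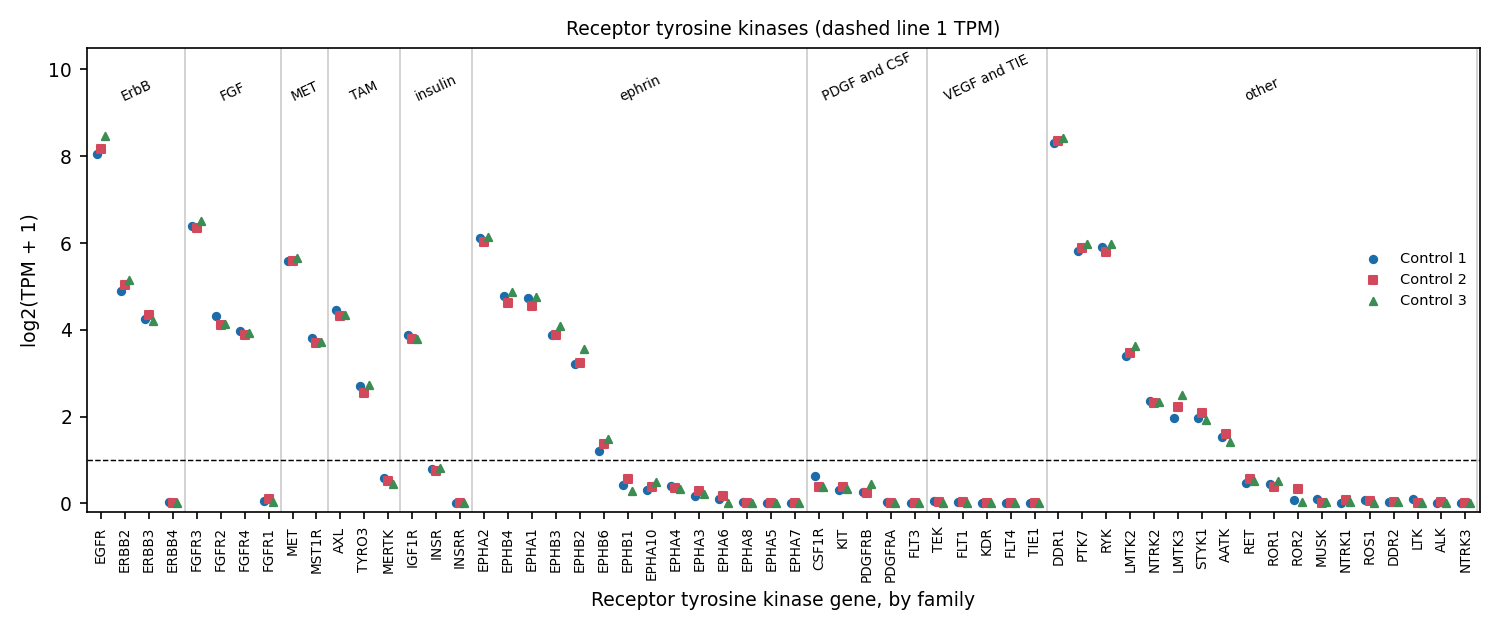
Levels of the 58 receptor tyrosine kinases as log2(TPM + 1), grouped by family, with 1 symbol per Control library. EGFR and DDR1 lie highest, FGFR1 lies near 0 beside FGFR2, FGFR3 and FGFR4, and all PDGF, CSF, VEGF and TIE receptors lie below the dashed line at 1 TPM.

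Ligands were detected for several of these receptors. Of 46 growth factor genes, 30 were detected (65.2%, near the 59.2% of all protein-coding genes), with a median of 5.51 TPM against 4.49 TPM. FGFBP1, a secreted carrier of fibroblast growth factors and not itself a ligand, had 348, 296 and 319 TPM. GAS6, the ligand of AXL and TYRO3, had 139, 139 and 152 TPM. The Notch ligands JAG1 and JAG2 had 80.2, 73.1 and 83.04 TPM and 56.1, 53.7 and 60.6 TPM, VEGFA 46.4, 46.6 and 49.4 TPM and WNT10A 44.8, 40.97 and 48.3 TPM. Among ligands of the ErbB family, NRG1 had 28.01, 26.96 and 29.4 TPM, AREG 16.4, 16.7 and 18.5 TPM, TGFA 14.2, 14.4 and 15.4 TPM, EREG 12.2, 10.6 and 11.3 TPM and HBEGF 10.4, 10.1 and 9.04 TPM. EGF itself had 0.6097, 0.657 and 1.03 TPM. NRG3, HGF, IGF1, FGF10, FGF3 and FGF4 were the 6 ligands listed at 0, so that the receptors MET and IGF1R were detected and their ligands HGF and IGF1 were not.

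Of 33 receptors of the Notch, WNT and TGF-beta pathways, 21 were detected (63.6%, near the 59.2% of all protein-coding genes), with a median of 3.95 TPM against 4.49 TPM. NOTCH3 and NOTCH1 had 56.4, 59.04 and 64.8 TPM and 35.5, 36.3 and 41.3 TPM, NOTCH2 averaged 16.1 ± 0.587 TPM, and NOTCH4 had at most 0.0301 TPM. In the WNT pathway group, FZD6 and LGR4 had 59.8, 53.05 and 58.6 TPM and 56.9, 54.4 and 55.2 TPM, and the co-receptor LRP5 had 39.3, 39.6 and 42.5 TPM. LGR5, a stem cell receptor of the gut, was listed at 0. ACVR1B was the highest of the TGF-beta and BMP receptors with 16.7, 16.9 and 16.2 TPM. TGFBR2 and TGFBR1 averaged 14.9 ± 0.504 TPM and 10.6 ± 0.337 TPM. AMHR2 was listed at 0.

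Of 52 cytokine and death receptors, 30 were detected (57.7%, near the 59.2% of all protein-coding genes), with a median of 4.92 TPM against 4.49 TPM. TNFRSF12A, the receptor of TWEAK, and LTBR, the lymphotoxin beta receptor, had 138, 137 and 150.4 TPM and 132, 139 and 148 TPM. IL20RB had 108, 98.2 and 104 TPM, and both chains of the interferon gamma receptor, IFNGR1 and IFNGR2, had 97.2, 89.8 and 94.8 TPM and 88.5, 78.7 and 82.9 TPM. TNFRSF1A and TNFRSF21 were close to one another at 87.6 ± 7.59 TPM and 86.8 ± 3.68 TPM. The haematopoietic receptors IL2RA, CSF2RB and CSF3R were listed at 0, as was IL13RA2. FAS had 9.45, 7.05 and 6.24 TPM, with its highest value in library 1.

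Of 48 nuclear receptors, 23 were detected (47.9%, against 59.2% of protein-coding genes), with a median of 0.879 TPM. The orphan receptor ESRRA had 131, 131 and 140.1 TPM, the common partner RXRA 103, 104 and 105 TPM and the retinoic acid receptor RARG 80.1, 71.4 and 76.3 TPM. NR2F6, PPARD and NR1H2 averaged 40.4 ± 2.78 TPM, 31.7 ± 1.02 TPM and 29.6 ± 4.05 TPM. Among steroid hormone receptors, the glucocorticoid receptor NR3C1 was detected, with 20.3, 16.8 and 18.3 TPM. ESR1, ESR2, NR3C2 and PGR stayed at or below 0.8799 TPM. RORB, ESRRB and NR0B1 were listed at 0.

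Oncogenes were detected in 46 of 52 cases (88.5%, against 59.2% of protein-coding genes), with a median of 32.2 TPM against 4.49 TPM for all protein-coding genes. After EGFR, the cell cycle kinase CDK4 had 309.6, 279 and 288 TPM, MYC 282, 271 and 282 TPM and the mitotic kinase AURKA 184, 149.8 and 152 TPM. TP63, given above, is also in this list. CTTN, an actin regulator, had 166, 154 and 172 TPM. MYC varied little between libraries, whereas AURKA was highest in library 1. Of the RAS genes, HRAS averaged 70.5 ± 6.796 TPM and NRAS 39.9 ± 2.07 TPM, and HRAS was the higher in every library. PIK3CA had 9.78, 9.52 and 9.99 TPM. BCL2, which blocks cell death, had 0.495, 0.414 and 0.537 TPM, while its relatives MCL1 and BCL2L1 averaged 144 ± 7.15 TPM and 25.6 ± 1.103 TPM. MYCN stayed at or below 0.0728 TPM and MYCL averaged 3.01 ± 0.361 TPM.

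The neighbouring genes of chromosome 11q13, a region often gained in head and neck carcinoma, differed in level. CTTN was the highest, CCND1 averaged 91.7 ± 1.73 TPM, FADD 60.5 ± 1.397 TPM, ANO1 43.3 ± 0.726 TPM and LTO1 38.5 ± 5.43 TPM. PPFIA1 and SHANK2 averaged 27.5 ± 0.703 TPM and 4.08 ± 0.391 TPM. FGF3 and FGF4 in the same region were listed at 0, and FGF19 had at most 0.4797 TPM.

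Tumour suppressors were detected in 50 of 60 cases (83.3%, against 59.2% of protein-coding genes), with a median of 16.5 TPM. B2M, the light chain of HLA class I, had 1322, 1172 and 1186 TPM. AJUBA had 98.2, 90.4 and 99.3 TPM and CDKN2A, which encodes p16 and p14ARF, 87.6, 78.5 and 94.6 TPM. HLA-B, a heavy chain of class I, averaged 86.05 ± 10.99 TPM, far below B2M, and its level is uncertain because the class I genes are close in sequence and vary between people. RB1 averaged 38.8 ± 1.12 TPM and FAT1 32.7 ± 1.53 TPM. SMAD4, a mediator of TGF-beta signals, had 6.59, 4.96 and 5.38 TPM. LRP1B stayed at or below 0.0151 TPM, and CSMD1, WIF1 and SFRP2 were listed at 0. These values are amounts of RNA and do not tell whether the genes carry mutations.

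All 27 proliferation genes were detected (100%, against 59.2% of protein-coding genes), with a median of 103 TPM against 4.49 TPM. UBE2C and CDC20, which act in mitotic protein degradation, had 460.1, 427 and 458 TPM and 399.8, 350.1 and 371 TPM. The replication clamp PCNA had 333, 269.9 and 282 TPM and the helicase subunit MCM7 219, 208 and 228 TPM. CCNB1 and PLK1, both of mitosis, averaged 197 ± 10.9 TPM and 165 ± 10.1 TPM. The lowest value in the list was 25.2 TPM, in CENPF.

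HOX genes, which record position along the body axis, were detected in 26 of 39 cases (66.7%, against 59.2% of protein-coding genes), with a median of 2.56 TPM. The 3 highest were neighbours in the HOXD cluster, HOXD9 with 47.2, 41.8 and 44.1 TPM, HOXD10 with 31.7, 33.4 and 36.5 TPM and HOXD11 with 24.7, 24.3 and 25.1 TPM. HOXC10, HOXA10 and HOXA7 followed at 14.7 ± 1.16 TPM, 13.8 ± 1.52 TPM and 9.39 ± 0.352 TPM. Within HOXD, HOXD1, HOXD3, HOXD4 and HOXD12 stayed below 1 TPM, while HOXD8 and HOXD13 averaged 3.402 ± 0.368 TPM and 3.18 ± 0.1797 TPM. HOXC12 was listed at 0.

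Of 28 cancer-testis antigens, 7 were detected (25%, against 59.2% of protein-coding genes). Silent members numbered 19 (67.9%, against 25.9%), and 16 of those were listed at 0 (57.1% of the list, against 17.8%). MAGEA4 had 162, 158 and 154 TPM, MAGEA6 62.6, 59.3 and 61.7 TPM and MAGEA3 55.9, 48.96 and 55.7 TPM. MAGEA3 and MAGEA6 are near-identical, so their separate levels are uncertain. LY6K and SPAG9 averaged 27.3 ± 0.534 TPM and 27.5 ± 2.504 TPM, and DDX43 6.97 ± 0.913 TPM. MAGEA1, MAGEA10, MAGEB1, MAGEB2, MAGEC1 and MAGEC2 were among those listed at 0. Within 12 melanoma antigen A genes, 3 were detected and 8 were silent (66.7%, against 25.9%).

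Silent protein-coding genes lay in families and in runs. Of 389 olfactory receptors, 372 (95.6%) were silent, as were 88 of 94 keratin-associated proteins of hair, all 22 PRAME family genes counted here and 35 of 39 beta-defensins, against 25.9% of all protein-coding genes. Zinc finger genes with a ZNF symbol were silent in 139 of 518 cases (26.8%) and solute carriers in 112 of 377 (29.7%), near the background. Exceptions among olfactory receptors were OR2W3 with 2.75, 2.31 and 1.98 TPM and OR2A7 with 1.94, 2.002 and 2.44 TPM.

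The longest run of neighbouring silent genes held 65 genes on chromosome 11 (GRCh38, 48216810 to 57191717), from OR4B1 to LRRC55, of which 57 were olfactory receptors and 62 were listed at 0. The second held 30 genes on chromosome 1, from AADACL4 to LRRC38, and included the 22 PRAME family genes. Next were 27 keratin-associated protein genes on chromosome 21, from KRTAP24-1 to KRTAP21-3, all listed at 0. Runs of 26 genes lay on chromosome 8, from ZNF705G to SPAG11A, and on chromosome 11, from OR51D1 to HBG2. The type I keratin cluster on chromosome 17 (40654665 to 41624842) combined both states, with 9 detected (14.3%) and 42 silent genes (66.7%) among 63, against 59.2% and 25.9% of all protein-coding genes. The type II cluster on chromosome 12 (52168996 to 52952901) had 11 detected (40.7%) and 5 silent genes (18.5%) among 27. A silent run of 24 keratin-associated protein genes lies within the type I cluster.

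The 3 libraries were close to one another. Over 15734 genes with a mean of at least 1 TPM, the SD of log2(TPM + 1) had a median of 0.0981. It was 0.150 at 1 to 5 TPM and 0.0786 at 20 to 100 TPM. Across genes, which are not independent replicates, each pair of libraries had a Pearson's r of 0.990 to 0.991, and between 138 and 151 genes differed by at least 1 log2 unit. In 151 of the 15734 genes (0.96%), 1 library lay at least 1 log2 unit from both others, library 1 in 43 genes, library 2 in 63 and library 3 in 54. Some genes were counted under more than 1 library. No library held most of these genes.

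**Figure D5:**
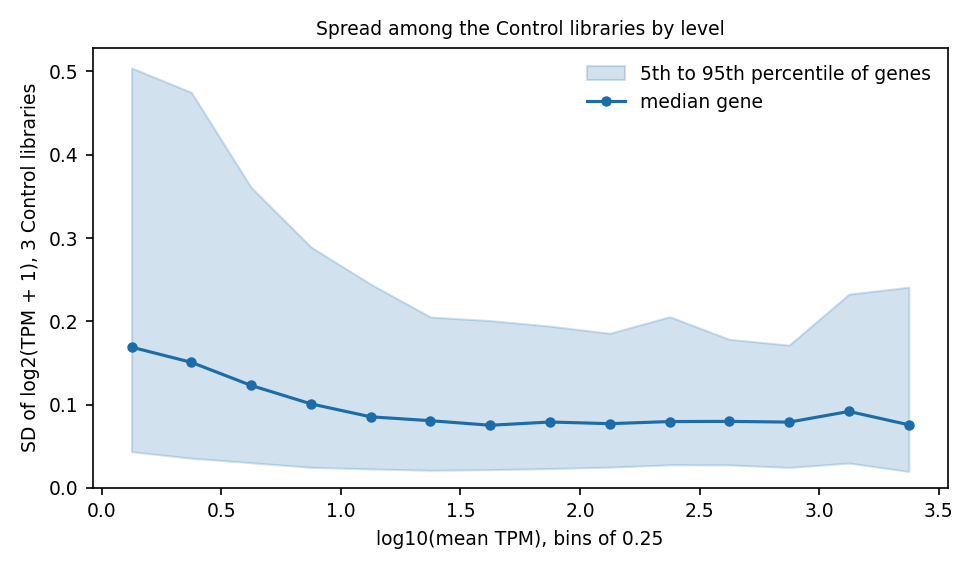
SD of log2(TPM + 1) over the 3 Control libraries against log10 of the mean TPM, with the median gene (points) and the 5th to 95th percentile of genes (shading) in bins of 0.25. The median falls from 0.169 in the lowest bin to 0.0806 in the bin from 1.25 to 1.5.

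The genes with the largest spread were of a few kinds. ZNF593, a zinc finger protein gene, had 24.9, 0 and 27.9 TPM, TEKTIP1 0, 10.3 and 11.9 TPM and TALAM1, an antisense RNA of MALAT1, 0, 30.2 and 0 TPM. In each of them, 1 library was listed at 0 or was the only one above 0. ZNF593 and TEKTIP1 also overlap a gene on the opposite strand, as do PRKAG1 and the second MATR3 identifier below. The use of strand in counting is not given in the sources used here. TALAM1 and SAGSIN1 had no known position, so their overlaps are unknown. FAM220A had 21.97, 1.83 and 19.8 TPM, PRKAG1, a subunit of the energy sensor AMPK, 32.5, 90.03 and 14.5 TPM, RN7SL2, an RNA of the signal recognition particle, 11.6, 1.02 and 17.9 TPM and SAGSIN1 1.16, 19.6 and 2.73 TPM. The rest overlap, on the same strand, a gene with a mean of at least 1 TPM. BCL2L2-PABPN1, a readthrough of neighbouring genes, had 31.98, 0.383 and 7.51 TPM, RPS10-NUDT3, another readthrough, 3.33, 32.2 and 16.9 TPM, and a second identifier of MATR3 20.1, 21.8 and 2.76 TPM. Over all genes where 1 library lay apart and a position was known, 75 of 126 (59.5%) overlapped another gene on the same strand, against 4829 of 14597 genes (33.1%).

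Among the members of the 28 lists used here, 429 had a mean of at least 1 TPM, and in none of them did 1 library lie 1 log2 unit from both others. Their median SD of log2(TPM + 1) was 0.0787. Over all 15734 genes with such a mean, 0.96% had 1 library apart and the median SD was 0.0981. The SD depends on level, with a median of 0.150 at 1 to 5 TPM and 0.0786 at 20 to 100 TPM. List members were not matched to other genes by level. The most variable list member was CDH13, an atypical cadherin, with 7.98, 13.98 and 17.9 TPM, which was lowest in library 1 and highest in library 3. SMARCB1, a chromatin remodelling subunit, had 50.98, 41.5 and 68.3 TPM, and ITGA2, a collagen-binding integrin chain, had 18.4, 11.6 and 12.7 TPM. SMARCB1 was highest in library 3 and ITGA2 in library 1.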

How the data were processed

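RNA of the 3 Control libraries was taken with TRIzol, and dUTP libraries were made from 2 ug of total RNA, with polyA RNA as the molecule, per the labels' protocols. The authors deposited TPM values per Ensembl gene identifier for each library. The build was hg38, per the submitters' processing notes. How reads were quantified, against which annotation and with what strand setting is not given in the sources used here, and TPM keeps no depth.

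Symbols were taken from a table of Ensembl identifiers (61463 of 78894 matched) and gene types and positions from GENCODE release 29 (57342 matched). Promoters came from RefSeq. Python 3.11.15, pandas 2.3.3 and numpy 2.4.6 were used. With 1 group there was no test and no p-value: levels are given per library and as mean ± SD, and spread as the SD of log2(TPM + 1). The spread, the count of genes with 1 library apart and the scaling were tested on simulated data. The simulated spread was the same at every level, unlike in these libraries, and shifts were placed only in genes of at least 5 TPM. Counts of detected and silent genes were not covered.

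The members and the 28 lists were chosen with earlier results of these data known. Named genes were the 20 nuclear genes with the highest mean, the 6 highest members of each list and up to 6 listed at 0, every detected keratin, the 10 genes of largest spread with a mean of at least 5 TPM, and the 5 longest silent runs. Other genes were named after their values were seen. Some genes that the rule names are not reported here. Alternatives were other detection minimums, pseudocounts and scalings, a total without mitochondrially encoded genes, and each library left out.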

Additional observations from a re-analysis of the deposited data

How the results depend on the processing

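TPM is a share, so leaving out mitochondrially encoded genes raised every nuclear level by 0.378 to 0.452 log2 units, took the share of the 100 highest genes from 41.8% to 26.3% and the keratin sum from 18275 to 24219 TPM. Scaling by the median of ratios moved the mean of each of 187 named genes by no more than 1 SD. Its shifts in libraries 1, 2 and 3 were -0.0257, 0.0399 and -0.0222 log2 units, which nearly cancel in a mean. That result therefore holds largely by construction and does not test stability. Without the mitochondrial genes, 32 of 187 stayed within 1 SD. Leaving out a library kept all 187 within 1 SD, but with so few libraries this holds by construction and does not test stability. Named genes listed at 0 in every library, such as ALB and HBB, are among the 187 and cannot move under any of these settings. The counts of detected and silent genes stayed within 1.5 times under every alternative run, which is a wide band. Detected identifiers numbered 10393 with a minimum of 5 TPM, against 14797. Silent genes numbered 7577 if counted below 1 TPM, against 5122. Of the 28 lists, 20 stayed within 1.5 times with a minimum of 5 TPM, 27 with a minimum of 0.5 TPM and 27 without mitochondrially encoded genes. The median SD of 0.0981 was 0.109 with a pseudocount of 0.1, 0.0689 with 5, 0.0937 with no filter, 0.0846 at a mean of at least 5 TPM, 0.0904 scaled by the median of ratios and 0.0785 to 0.0856 with each library left out, where an SD over 2 values has a smaller median by construction. Genes with 1 library apart numbered 346 and 43 with pseudocounts of 0.1 and 5 and 47 at a mean of at least 5 TPM, against 151, and this count cannot be made from 2 libraries. The share with TATA letters in silent genes was 17.9% for genes with 1 promoter entry, and TATAAA alone, added after the data were seen, gave 7.80% in silent genes, 1.23% at 10 to 100 TPM and 7.69% at 1000 TPM or more. No paired analysis was possible because only 1 group was described. The unknown depth limits what values near 0 can show.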

Other observations

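Among genes of a long noncoding type in GENCODE, the most abundant were NEAT1, the scaffold of paraspeckles, with 1034, 939 and 947 TPM in libraries 1, 2 and 3, and SNHG29, a host gene of small nucleolar RNAs, with 672, 621 and 617 TPM. ZFAS1 averaged 324 ± 23.6 TPM (SD, n = 3) and GAS5 277 ± 11.98 TPM. MIR205HG, the host gene of a microRNA of basal epithelia, had 293, 312 and 313 TPM. Of 6891 long intergenic noncoding RNA genes, 533 (7.73%) reached 1 TPM in every library, against 11731 of 19851 genes of protein-coding type on all chromosomes and scaffolds (59.1%).

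Detected protein-coding genes also lay in runs. The longest held 39 genes on chromosome 9, from TOR2A to LRRC8A, with a median of 39.3 TPM, and the next 35 genes on chromosome 2, from VRK2 to DNAAF10, with a median of 13.99 TPM. The share of detected protein-coding genes by chromosome ran from 43.0% on X to 66.9% on chromosome 16. Among 377 solute carriers, SLC7A5, a transporter of large neutral amino acids, had the highest single value, 1720 TPM, and 208 members were detected. In 15 genes, at least 1 library was listed at 0 while another reached 5 TPM or more.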
